A study of Prunus persica with 20 samples.

Results

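The genes described here are 8 peach genes known from fruit ripening, ethylene synthesis and softening, followed in young fruit long before ripening. They were chosen by a list of gene IDs out of the 26811 genes of a count table: ACS1 (Prupe.2G176900.v2.1), ACO1 (Prupe.3G209900.v2.1), YUC11 (Prupe.6G157500.v2.1), the 2 NAC genes of the maturity date locus (Prupe.4G186800.v2.1 and Prupe.4G187100.v2.1), the 2 endopolygalacturonases of the melting flesh locus (Prupe.4G261900.v2.1 and Prupe.4G262200.v2.1) and CCD4 (Prupe.1G255500.v2.1). Messenger RNA was sequenced from *Prunus persica* fruit taken at fruit set from 4 accessions, to learn how fruit hair is controlled. MN is the Maravilha nectarine mutant, a smooth-fruited mutant that arose from a peach and is stated Gg at the G locus, which separates hairy from smooth fruit (5 libraries), and Sunraycer is a commercial nectarine stated gg (5 libraries). TN7 is a peach stated Gg (4 libraries analysed) and TN11 a peach stated GG (5 libraries). No treatment is stated, and each genotype and surface combination rests on a single accession, so genotype, surface and other differences between accessions cannot be told apart. The sources do not say whether libraries of an accession stem from different trees or fruits. Every p-value is therefore relative to the spread of these libraries, which may be technical. Names for the other genes of these pathways and for tissue markers were not used here, because the table gives IDs without names.

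Ethylene is made from S-adenosylmethionine in a short pathway. ACC synthase, the enzyme encoded by ACS1, makes its precursor ACC, and ACC oxidase, encoded by ACO1, turns ACC into ethylene. In ripening peaches a burst of ethylene drives softening, in which endopolygalacturonases cut the pectin of the cell wall, and auxin made by the flavin monooxygenase YUC11 precedes that burst. NAC transcription factors at the maturity date locus are linked to the time of ripening, and CCD4 is a dioxygenase that cleaves carotenoids and is linked to flesh colour.

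Library totals lay between 14890206 and 24474843 counts. Levels are given as CPM, the count scaled by library size and TMM factor, and differences as log2 values with their standard error from edgeR's quasi-likelihood fit over 19360 tested genes. Differences of at least 2-fold with an adjusted p (Benjamini-Hochberg) under 0.05 are described as called. Of the 8 genes, 7 had enough counts to be tested. Libraries of every accession also spread along a shared direction, the first principal component of deviations from the accession means, computed without the 8 genes and holding 39.7% of that variance. Scores on it, in SD over the 19 libraries, were −1.63 to −0.279 in MN, 0.360 to 2.57 in Sunraycer, −0.780 to 0.795 in TN7 and −0.515 to 0.499 in TN11. MN and Sunraycer did not overlap in this score, so a fit with the score as a covariate cannot separate the 2 nectarines from it. Among the peaches, only TN7 5 (0.795) and TN11 2 (0.499) scored above the lowest Sunraycer library (0.360). Values of Sunraycer against a peach with the score as a covariate thus rest on little overlap as well.

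YUC11 was not detected. It had 0 counts in all 19 libraries, which allows a level of up to 0.00770 CPM over them (3 counts, counting error only). No comparison could be made for this auxin synthesis gene.

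ACS1 transcript was far higher in Sunraycer than in the other accessions, and was nearly absent from TN7. Its level was 9.27, 10.7, 4.43, 17.6 and 17.8 CPM in Sunraycer 1, 2, 3, 4 and 10. In MN it was 3.62, 0.269, 1.35, 1.98 and 0.139 CPM in libraries 1, 3, 4, 5 and 6. Every Sunraycer library lay above every other library, while MN spread 26.1-fold between its highest and lowest library. TN7 had 0.250, 0, 0.0933 and 0.376 CPM in libraries 1, 2, 3 and 5, and TN11 had 0.411, 1.01, 0.521, 0.642 and 0.548 CPM in libraries 1 to 5. In bulk tissue, fewer cells that express a gene and less RNA in each cannot be told apart, here and below.

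Sunraycer averaged 11.9 ± 5.74 CPM and TN11 0.626 ± 0.228 CPM of ACS1 (SD, n = 5 each), 18.8-fold higher in Sunraycer (log2 4.24, SE 0.683, edgeR adjusted p = 0.000132). Against TN7, with 0.180 ± 0.167 CPM (SD, n = 4), the nectarine was 65.1-fold higher (log2 6.02, SE 0.868, edgeR adjusted p = 5.95e-05). Both differences were called under every alternative run. MN averaged 1.47 ± 1.43 CPM (SD, n = 5), 8.18-fold lower than Sunraycer (log2 −3.03, SE 0.634, edgeR adjusted p = 0.000866; with the score as a covariate −2.91, SE 1.07, adjusted p = 0.132). MN was also 7.95-fold higher than TN7 (log2 2.99, SE 0.849, edgeR adjusted p = 0.0184), with overlapping libraries. That call was lost without MN 1 (log2 2.37, adjusted p = 0.0554), without TN7 2 (2.59, adjusted p = 0.0609) and in limma-voom (2.68, adjusted p = 0.118).

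The order of ACS1 levels was Sunraycer, MN, TN11 and TN7. MN and TN11 were not separated (2.30-fold higher in MN, log2 95% interval −0.197 to 2.60, edgeR adjusted p = 0.173), nor were TN7 and TN11 (log2 −1.79, 95% interval −3.65 to 0.0677, edgeR adjusted p = 0.27), although the TN7 and TN11 libraries did not overlap. TN7 had 15 counts of the gene in all, so its level is known only roughly.

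ACO1 transcript was abundant in young fruit of all 4 accessions. Sunraycer libraries 1, 2, 3, 4 and 10 had 1699, 3476, 646, 1668 and 756 CPM. MN libraries 1, 3, 4, 5 and 6 had 77.6, 71.5, 465, 383 and 132 CPM. The nectarines did not overlap, and MN 4 and MN 5 were the highest of MN. TN7 had 249, 489, 179 and 767 CPM in libraries 1, 2, 3 and 5, and TN11 had 443, 536, 967, 407 and 336 CPM in libraries 1 to 5, so the peaches overlapped with each other and with both nectarines.

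On average ACO1 stood at 226 ± 185 CPM in MN and 1649 ± 1134 CPM in Sunraycer (SD, n = 5 each), 7.31-fold lower in MN (log2 −2.87, SE 0.614, edgeR adjusted p = 0.00103). With 538 ± 250 CPM in TN11 (SD, n = 5), Sunraycer was 3.07-fold higher (log2 1.62, SE 0.587, edgeR adjusted p = 0.0347). With 421 ± 266 CPM in TN7 (SD, n = 4), it was 3.92-fold higher (log2 1.97, SE 0.644, edgeR adjusted p = 0.0249). These calls were less stable than those of ACS1. Without Sunraycer 2 the values were 1.18 against TN11 (adjusted p = 0.115) and 1.51 against TN7 (adjusted p = 0.0721). Against TN11 the call was also lost in limma-voom (1.42, adjusted p = 0.0738) and without Sunraycer 4 or any of TN11 1, 2, 4 and 5 (1.49 to 1.62, adjusted p = 0.0506 to 0.0799). Against TN7 it was lost without TN7 1 or 3 (1.78 and 1.72, adjusted p = 0.0769 and 0.0781) and in the fit of the compared accessions alone (1.996, adjusted p = 0.0515). With the score as a covariate the difference between MN and Sunraycer was −0.52 (SE 0.628, adjusted p = 0.731), and those of Sunraycer from TN11 and TN7 were 0.17 and 0.48 (adjusted p = 0.838 and 0.582).

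MN was not separated from TN7 in ACO1 (log2 −0.90, 95% interval −2.17 to 0.375, edgeR adjusted p = 0.3), nor from TN11 (log2 −1.25, 95% interval −2.48 to −0.0280, adjusted p = 0.106), although the second was called in limma-voom (−1.60, adjusted p = 0.0358) and without MN 4 (−1.70, adjusted p = 0.0422). Between the peaches the log2 difference was −0.35 (95% interval −1.64 to 0.934, edgeR adjusted p = 0.841). The order of the means differed between ACS1 and ACO1: MN was above TN7 for the synthase and lowest of the 4 accessions for the oxidase. This order is uncertain, since the synthase call was lost under some alternatives and MN was not separated from either peach for the oxidase.

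**Figure D1:**
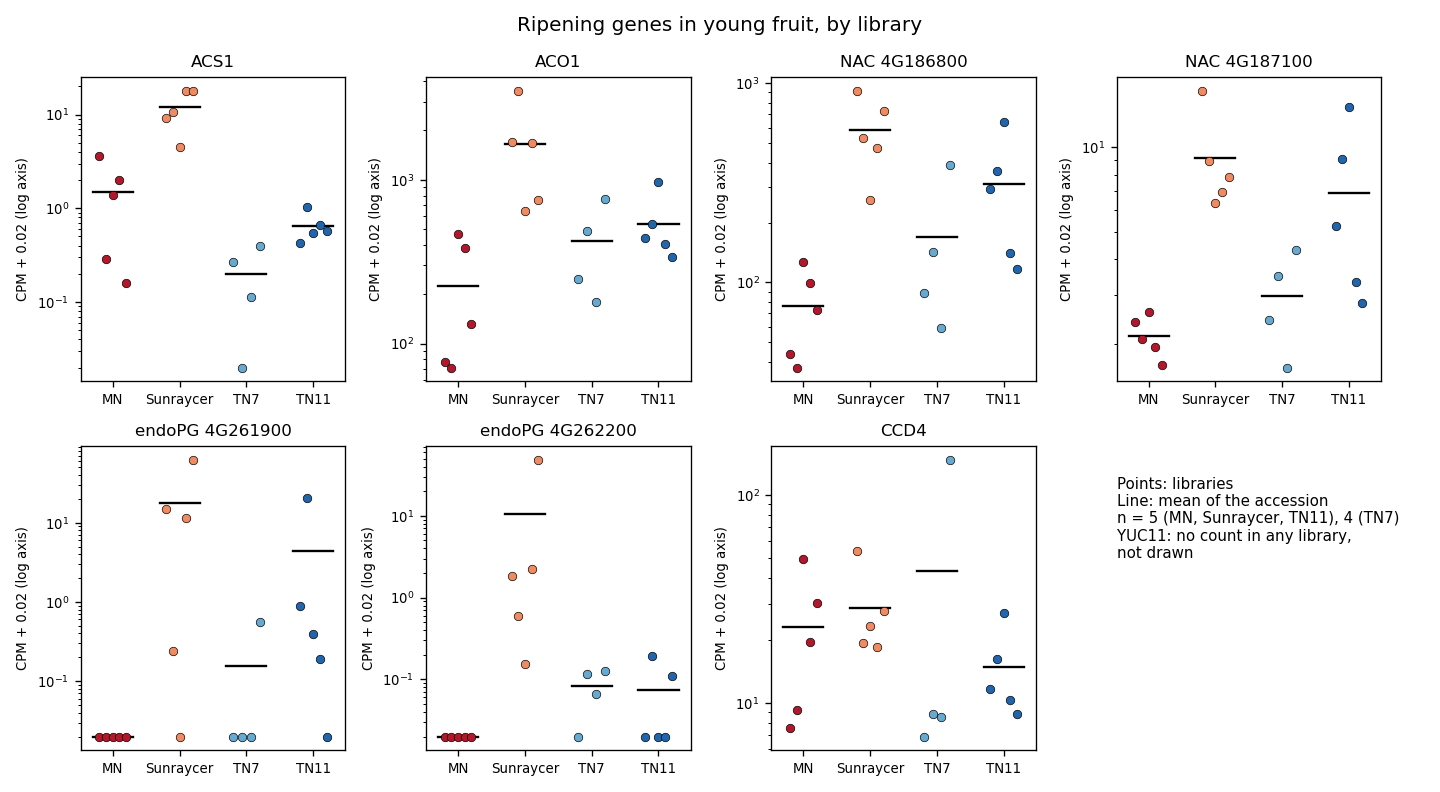
Level of each ripening gene per library (points, CPM plus 0.02 on a log axis) with the mean of the accession (line), for MN, Sunraycer, TN7 and TN11. ACS1 is above all other libraries in Sunraycer, both endopolygalacturonases lie at 0 counts in MN, and CCD4 has a single TN7 library at 147 CPM.

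Of the NAC transcription factor genes at the maturity date locus, 4G186800 had many counts in every library. It had 915, 531, 261, 471 and 726 CPM in Sunraycer 1, 2, 3, 4 and 10, and 43.7, 37.4, 127, 99.2 and 72.9 CPM in MN 1, 3, 4, 5 and 6. All Sunraycer libraries were above all MN libraries. TN7 libraries 1, 2, 3 and 5 had 88.8, 142, 58.7 and 389 CPM, and TN11 libraries 1 to 5 had 294, 364, 641, 140 and 117 CPM. The peaches covered the gap between the nectarines, with TN7 5 and TN11 3 the highest of their accessions.

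MN averaged 76.0 ± 37.6 CPM of 4G186800 and Sunraycer 581 ± 250 CPM (SD, n = 5 each), 7.64-fold lower in MN (log2 −2.93, SE 0.572, edgeR adjusted p = 0.00052). MN was also lower than TN11, which had 311 ± 211 CPM (SD, n = 5; log2 −2.03, SE 0.552, edgeR adjusted p = 0.00889). Sunraycer was 3.43-fold higher than TN7, with 170 ± 150 CPM (SD, n = 4; log2 1.78, SE 0.592, edgeR adjusted p = 0.0274). The call against TN7 was lost without Sunraycer 1 and without TN7 1, 2 or 3 (1.49 to 1.70, adjusted p = 0.0566 to 0.0853), and in the fit of the compared accessions alone (1.79, adjusted p = 0.0609). With the score as a covariate the 3 values were −0.64, −0.95 and 0.57 (adjusted p = 0.542, 0.0621 and 0.349), so none stayed called.

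Neighbouring levels of 4G186800 were not separated. Sunraycer minus TN11 was 0.90 (95% interval −0.226 to 2.03, edgeR adjusted p = 0.178), TN7 minus TN11 was −0.88 (−2.08 to 0.331, adjusted p = 0.443) and MN minus TN7 was −1.16 (−2.34 to 0.028, adjusted p = 0.152).

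The other NAC gene, 4G187100, followed the same order, with 2004 counts over the 19 libraries. Sunraycer 1, 2, 3, 4 and 10 had 15.8, 8.89, 6.34, 6.91 and 7.82 CPM, and MN 1, 3, 4, 5 and 6 had 2.38, 2.06, 2.57, 1.94 and 1.67 CPM. MN was the most even accession, with 1.54-fold between its highest and lowest library. TN7 1, 2, 3 and 5 had 2.42, 3.47, 1.63 and 4.30 CPM, and TN11 libraries 1 to 5 had 5.24, 9.05, 13.8, 3.30 and 2.79 CPM. MN lay below every Sunraycer and every TN11 library, and TN7 below every Sunraycer library.

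Means of 4G187100 were 2.12 ± 0.358 CPM in MN and 9.15 ± 3.85 CPM in Sunraycer (SD, n = 5 each), 4.30-fold lower in MN (log2 −2.11, SE 0.405, edgeR adjusted p = 0.000474). Compared with TN11, at 6.84 ± 4.62 CPM (SD, n = 5), MN was 3.22-fold lower (log2 −1.69, SE 0.401, edgeR adjusted p = 0.00363). Sunraycer was 3.10-fold higher than TN7, at 2.95 ± 1.17 CPM (SD, n = 4; log2 1.63, SE 0.428, edgeR adjusted p = 0.0076). With the score as a covariate these were −0.54, −0.91 and 0.69 (adjusted p = 0.593, 0.0549 and 0.226). MN minus TN7 was −0.47 (95% interval −1.36 to 0.417, edgeR adjusted p = 0.441) and Sunraycer minus TN11 0.42 (−0.385 to 1.22, adjusted p = 0.378). TN7 minus TN11 was −1.21 (−2.10 to −0.322, edgeR adjusted p = 0.0945), and was called in DESeq2 (adjusted p = 0.0457), without TN11 5 (−1.41, adjusted p = 0.0464) and with the score as a covariate (−1.06, adjusted p = 0.0265).

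Counts of 4G186800 per count of 4G187100 were taken within each library, so that library size and scaling cannot move them. Since the genes may differ in length, the ratio is compared between libraries only. It was 18.4 and 18.1 in MN 1 and 3 and 43.7 to 51.2 in MN 4, 5 and 6. It ran from 41.1 to 92.9 in Sunraycer (median 59.7), from 36.0 to 90.5 in TN7 (median 38.8) and from 40.2 to 56.0 in TN11 (median 42.6). MN 1 and MN 3 had the lowest ratios of the 19 libraries, and Sunraycer 10 and TN7 5 the highest. On the log2 scale, with 4G187100 over 4G186800, MN exceeded Sunraycer by 0.93 (exact two-sided permutation p = 0.0476, adjusted 0.167 over the 6 pairs), so no pair of accessions passed after adjustment. The adjusted values of the other pairs were 0.167 to 0.944, and the smallest p that these group sizes can give is 0.00794.

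**Figure D2:**
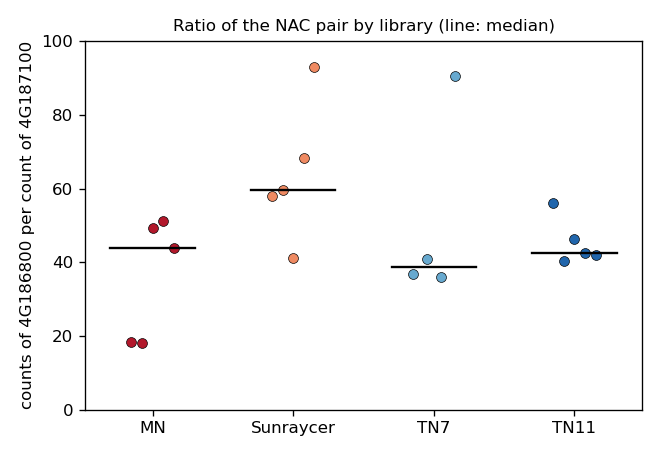
Counts of NAC gene 4G186800 per count of 4G187100 in each library (points) with the median of each accession (line). MN 1 and MN 3 lie lowest at 18.4 and 18.1, and Sunraycer 10 and TN7 5 highest at 92.9 and 90.5.

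The endopolygalacturonases of the melting flesh locus, enzymes that cut pectin inside the chain, were not detected in MN: both had 0 counts in its 5 libraries, which allows up to 0.0275 CPM (3 counts over the accession). In Sunraycer 1, 2, 3, 4 and 10, 4G261900 had 14.97, 0.220, 0, 11.3 and 61.8 CPM. In TN11 libraries 1 to 5 it had 0.873, 20.2, 0.379, 0.171 and 0 CPM, and in TN7 all 10 counts, or 0.537 CPM, came from library 5. The transcript was thus patchy: Sunraycer 1, 4 and 10 and TN11 2 held most of it, and every accession had at least 1 library with no count. Only 3 Sunraycer, 1 TN7 and 2 TN11 libraries passed 0.480 CPM, the level that the filter asks for in 4 libraries. Outside Sunraycer too few passed, so the test of this gene depended on the accession where it is highest.

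Sunraycer averaged 17.7 ± 25.6 CPM of 4G261900 and TN11 4.33 ± 8.90 CPM (SD, n = 5 each), a log2 difference of 2.02 that was not called (95% interval −1.27 to 5.31, edgeR adjusted p = 0.295). Without TN11 2, which held 463 of the 492 counts of TN11, the value was 5.64 (adjusted p = 0.0194). MN was at least 642-fold lower than Sunraycer (edgeR adjusted p = 0.00661) and at least 157-fold lower than TN11 (edgeR adjusted p = 0.0379). Each bound rests largely on 1 library: it was 240.4-fold without Sunraycer 10 and 12.9-fold without TN11 2. The call against Sunraycer was lost in limma-voom (adjusted p = 0.0637) and with the score as a covariate (0.437). That against TN11 was lost in limma-voom (0.3), with the score (0.279) and without TN11 2 (0.239). It was also lost without any single MN library or TN7 5 (adjusted p = 0.0592 to 0.0647), where the fitted value hardly moved. Sunraycer minus TN7 was 7.11 (SE 2.39, edgeR adjusted p = 0.0332). It was not called without Sunraycer 10 (5.71, adjusted p = 0.0623), without any single TN7 library (6.66 to 11.5, adjusted p = 0.0511 to 0.0873), in limma-voom (5.53, adjusted p = 0.183) or with the score as a covariate (5.84, adjusted p = 0.172).

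Its neighbour 4G262200 was mostly found in Sunraycer, with 823 counts there against 5 in TN7, 6 in TN11 and 0 in MN. Sunraycer 10 alone had 738 of them, or 48.1 CPM, and Sunraycer 1, 2, 3 and 4 had 1.81, 0.572, 0.136 and 2.21 CPM. No library of TN7 exceeded 0.107 CPM and none of TN11 exceeded 0.175 CPM, so in CPM only Sunraycer 3 came near either peach. It lay within the range of TN11. Its 2 counts equalled those of TN7 2 and TN7 5, so only scaling by library size put it above TN7. Only 4 Sunraycer libraries, and no other, passed the level of 0.480 CPM that the filter asks for in 4 libraries, so the gene entered the test through the accession in which it is high and had to differ. Without Sunraycer 1, 2, 4 or 10 it was not tested. The fitted values were 7.43 for Sunraycer minus TN11 (SE 1.64, edgeR adjusted p = 0.00301) and 7.33 for Sunraycer minus TN7 (SE 1.81, adjusted p = 0.00724). MN was at least 384-fold lower than Sunraycer, and at least 43.0-fold lower without Sunraycer 10. Without Sunraycer 10 and TN11 2 and with no filter, the values were 5.37 and 4.20 (edgeR adjusted p = 0.00272 and 0.00689), a choice made after the data were seen. Reads of near-identical family members could have been divided between copies in a way not recorded, so the split between 4G261900 and 4G262200 is uncertain.

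CCD4, the carotenoid dioxygenase, had a median of 19.7 CPM in MN, 23.4 CPM in Sunraycer, 8.73 CPM in TN7 and 11.7 CPM in TN11. The means, with 1 extreme TN7 library, were 23.1 ± 17.1, 28.6 ± 14.5, 42.9 ± 69.5 and 14.8 ± 7.41 CPM in that order (SD, n = 5, 5, 4 and 5). MN 1, 3, 4, 5 and 6 had 7.53, 9.25, 49.0, 19.7 and 30.2 CPM, and Sunraycer 1, 2, 3, 4 and 10 had 53.7, 19.5, 23.4, 18.6 and 27.7 CPM. TN7 1, 2, 3 and 5 had 6.88, 8.87, 8.58 and 147 CPM, and TN11 libraries 1 to 5 had 11.7, 16.2, 27.1, 10.3 and 8.82 CPM. TN7 5 was 21.4-fold above the lowest TN7 library and above every other library, and the accessions overlapped.

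No difference in CCD4 between accessions was called in edgeR's quasi-likelihood test (adjusted p = 0.296 to 0.735 over the 6 pairs). The TN7 comparisons turned on library 5. Sunraycer minus TN7 was −0.58 (95% interval −2.23 to 1.06, edgeR adjusted p = 0.561) with it and 1.81 (adjusted p = 0.0183, called) without it. MN minus TN7 was −0.89 (−2.53 to 0.758, edgeR adjusted p = 0.434) with it and 1.51 (adjusted p = 0.0834) without it, and TN7 minus TN11 was 1.53 (−0.131 to 3.19, adjusted p = 0.296) with it and −0.87 (adjusted p = 0.412) without it. CCD4 was called in 3 pairs with the score as a covariate, at 1.90 for MN minus TN11, −1.63 for Sunraycer minus TN7 and 2.62 for MN minus Sunraycer (edgeR adjusted p = 0.0138, 0.0413 and 0.0391). The scores of MN and Sunraycer do not overlap, so that fit cannot separate this pair from the score. The value of Sunraycer minus TN7 includes TN7 5.

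**Figure D3:**
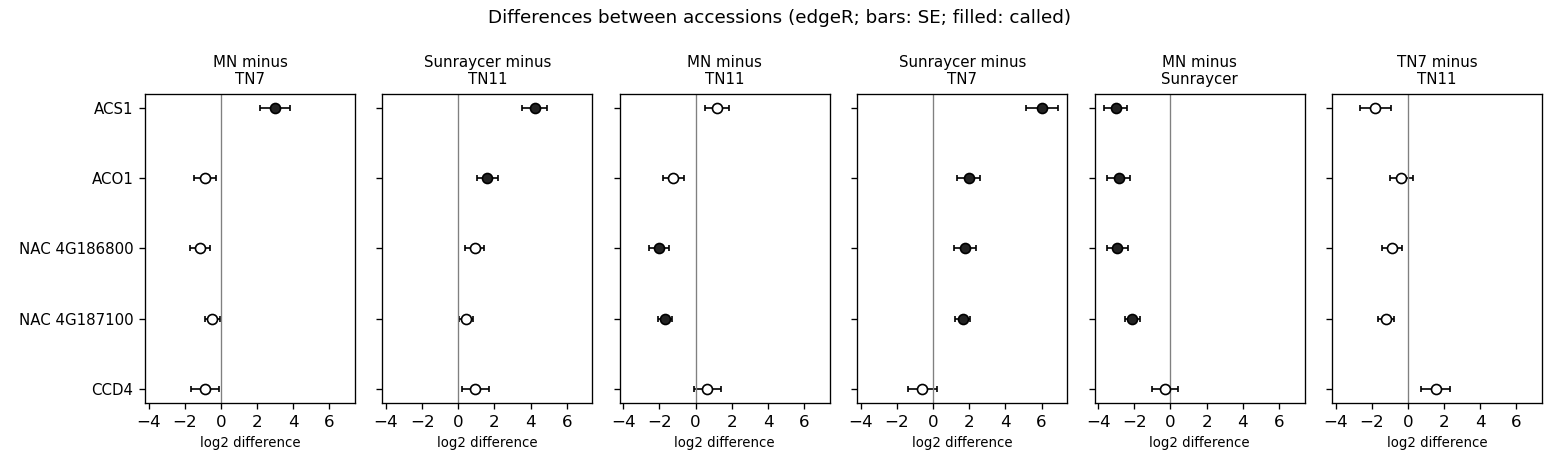
Log2 differences of 5 of the genes in the 6 pairs of accessions (points, edgeR; bars, SE), filled where called. The endopolygalacturonases are left out because fitted values against 0 counts depend on the prior count. All values of Sunraycer minus a peach for ACS1, ACO1 and the NAC genes are above 0, and all values of MN minus Sunraycer are below it.

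Set side by side, most of the tested ripening genes were called where Sunraycer was compared with MN or with TN7, and fewer elsewhere. Since 4G262200 could pass the filter only through Sunraycer, the counts against Sunraycer leave it out. They still hold 4G261900, which also needed the Sunraycer libraries to pass, so its calls against Sunraycer lend no support. Apart from it, the genes called in MN minus Sunraycer and in Sunraycer minus TN7 were ACS1, ACO1 and the NAC genes. In MN minus Sunraycer 5 of the other 6 tested genes were lower and none higher, where 25.2% of all tested genes were called (8.41% higher, 16.8% lower). The median log2 value of the 6 was −2.90, against 0.04 over all tested genes. In Sunraycer minus TN7 5 of the 6 were higher (16.2% of all genes called, 9.71% higher and 6.45% lower; medians 1.87 and −0.06). These pairs share the Sunraycer libraries.

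In Sunraycer minus TN11 ACS1 and ACO1 were higher, 2 of the 6 tested genes without 4G262200 (18.3% of all genes called, 9.85% higher and 8.49% lower; medians 1.28 for the 6 and −0.05 for all). In MN minus TN11 the NAC genes and 4G261900 were lower, 3 of 7 tested genes. Of all genes 15% were called, 3.88% higher and 11.1% lower. The median was −1.69 for the 7, −1.47 without 4G262200 and −0.02 for all. In MN minus TN7, the pair that shares the stated genotype Gg, only ACS1 was called, 1 of 7, near the 10.3% of all tested genes (2.73% higher, 7.59% lower; medians −0.90 and −0.02). Between TN7 and TN11 0 of 7 were called in edgeR (4.34% of all genes called, 1.55% higher and 2.78% lower; medians −0.88 and −0.01), 2 had an unadjusted p below 0.05, and DESeq2 called 1 and limma-voom 0.

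The nectarine minus peach difference was also compared between the pairs. For ACO1, MN minus TN7 was below Sunraycer minus TN11, with a log2 value of −2.52 (SE 0.841, edgeR adjusted p = 0.028), and likewise for 4G186800, with −2.06 (SE 0.777, adjusted p = 0.0461). These were 2 of the 7 genes, where 21.7% of all tested genes were called for this difference (8.27% higher, 13.4% lower), so the count is near that share. The ACO1 call was lost without Sunraycer 2, TN7 5 or TN11 5 (−2.39 to −2.05, adjusted p = 0.0506 to 0.0799). With the replicate number as a block both calls were lost (ACO1 −2.45, adjusted p = 0.0692; 4G186800 −1.78, adjusted p = 0.189). That of 4G186800 was lost on leaving out any of 14 single libraries, most of all TN7 5 (−1.24, adjusted p = 0.183). Both fell away with the score as a covariate (−0.21 and 0.25, adjusted p = 0.924 and 0.879).

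Within accessions, several of the genes moved together from library to library. 4G186800 and CCD4 lay on the same side of their accession's mean log2 CPM in 17 of 19 libraries, ACO1 and 4G187100 in 16, and ACO1 and 4G186800 in 14. MN 4 and MN 5 were above their accession's mean log2 CPM in ACO1, 4G186800, CCD4 and ACS1. TN11 3 was highest of its accession in ACO1, both NAC genes and CCD4, and TN7 5 was highest of its accession in ACS1, ACO1, both NAC genes and CCD4. For the other pairs among ACO1, the NAC genes and CCD4 the number was 13 or 14, the NAC pair being at 13. ACS1 lay on the same side as ACO1 in 11 libraries, as CCD4 in 12 and as each NAC gene in 10. MN 1 had the highest ACS1 level of MN, at 3.62 CPM, and nearly the lowest ACO1 level, at 77.6 CPM. Deviations taken within an accession share its mean and the library scaling, and their agreement was not tested.

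**Figure D4:**
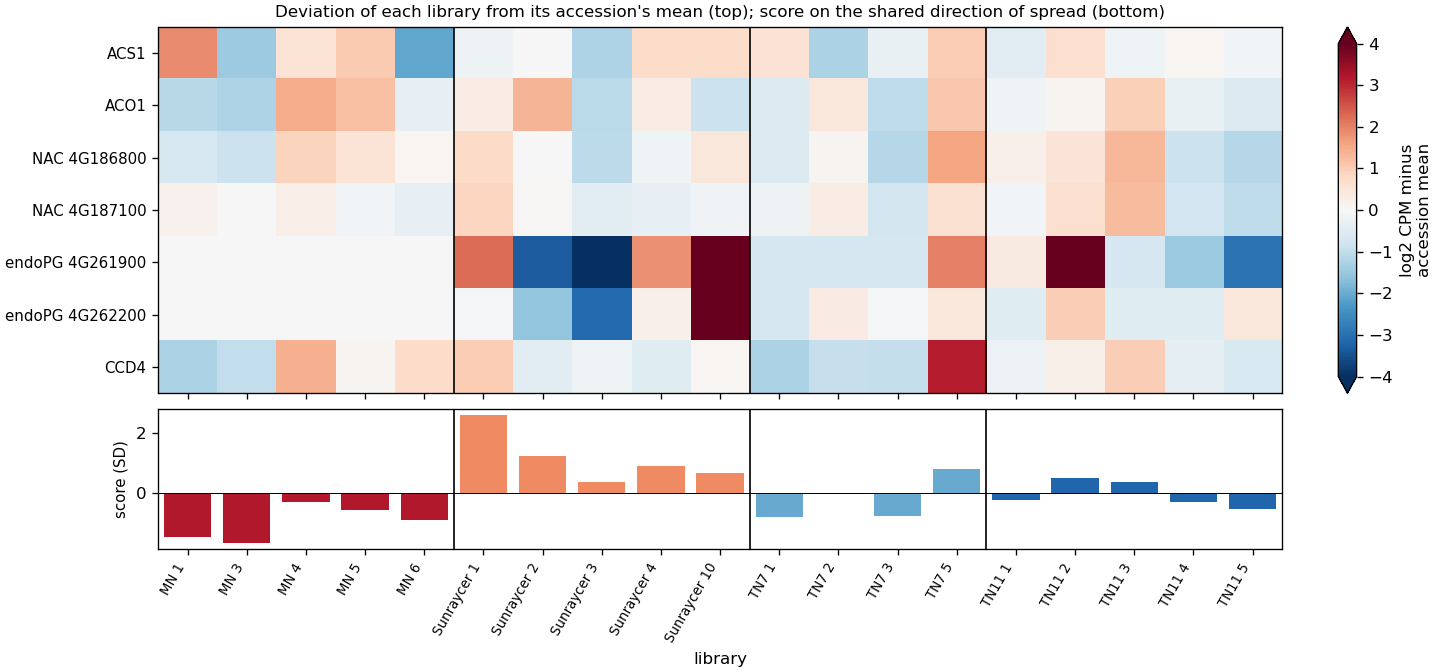
Deviation of each library from its accession's mean log2 CPM for the 7 genes with counts (colour, red above and blue below; values beyond 4 are drawn as 4), with the library's score on the shared direction of spread below (bars, SD). TN7 5 is red in ACS1, ACO1, the NAC genes and CCD4 and has the highest score of TN7, 0.795.

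The same pattern appeared against the shared direction of spread. In the fit with accession and score, the slope per SD of score was 1.27 (SE 0.267) on the log2 scale for ACO1, 1.16 (SE 0.196) for 4G186800, 0.70 (SE 0.168) for 4G187100 and 1.55 (SE 0.298) for CCD4. These slopes were steep among genes: 2.47%, 3.18%, 10.2% and 1.44% of all tested genes had a larger slope in either direction. For ACS1 the slope was 0.06 (SE 0.419), smaller than that of 84.7% of tested genes. The endopolygalacturonases gave 1.72 (SE 1.65) and −1.38 (SE 1.11), neither clear of its error. ACS1 kept its differences of Sunraycer from TN11 and TN7 at 4.16 and 5.94 with the score as a covariate (edgeR adjusted p = 0.000883 and 0.000388). Sunraycer shared little of its range of scores with either peach, which limits that fit. What the score stands for was not tested.

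**Figure D5:**
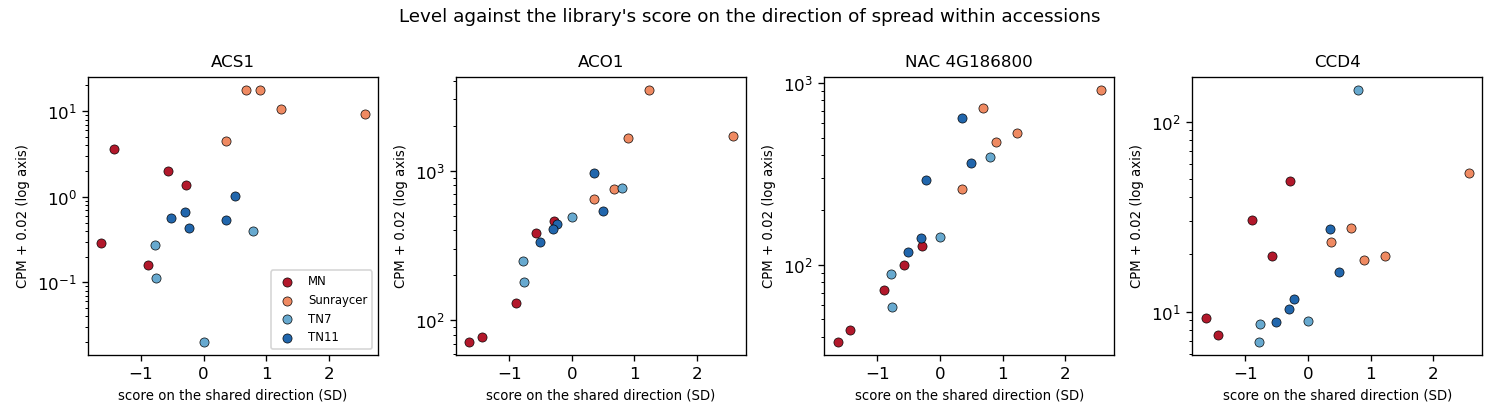
Level of ACS1, ACO1, NAC 4G186800 and CCD4 (CPM plus 0.02, log axis) against the library's score on the direction of spread within accessions (SD over 19 libraries), coloured by accession. Within accessions, ACO1, the NAC gene and CCD4 climb with the score (slopes 1.27, 1.16 and 1.55 log2 per SD). The slope of ACS1 within accessions, 0.06 (SE 0.419), is not clear of its error.

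For each gene the 2 tested genes with the most similar profile were found by the root mean square difference of centred log2 CPM over the 19 libraries. 4G186800 had the closest match, Prupe.2G282900.v2.1, at 0.328 (median over all tested genes 1.47), with mean levels of 6.55 CPM in MN, 47.4 in Sunraycer, 14.0 in TN7 and 20.5 in TN11. Prupe.7G262000.v2.1 followed at 0.347. 4G187100 was nearest to Prupe.6G227700.v2.1 (0.394) and Prupe.2G239700.v2.1 (0.411). ACO1 was nearest to Prupe.1G324400.v2.1 (0.440), with 32.3 CPM in MN and 266 CPM in Sunraycer, and then to Prupe.3G208400.v2.1 (0.463).

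ACS1 was nearest to Prupe.8G217100.v2.1 (0.742), with 1.62, 17.2, 0.191 and 1.36 CPM in MN, Sunraycer, TN7 and TN11, and to Prupe.1G275300.v2.1 (0.834). The endopolygalacturonases had the same nearest gene, Prupe.1G482900.v2.1, at 0.775 for 4G262200 and 1.49 for 4G261900, with no count in MN and 6.03 CPM in Sunraycer. Next came Prupe.8G130200.v2.1 (0.831) for 4G262200 and Prupe.4G097000.v2.1 (1.51) for 4G261900. CCD4 was nearest to Prupe.3G280700.v2.1 (0.624) and Prupe.2G045500.v2.1 (0.656). Among the ripening genes themselves, the NAC pair were most alike (0.600), followed by ACO1 and 4G186800 (0.623), while ACS1 and ACO1 differed by 1.84.

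The 10 IDs on either side of each gene, in ID order on its chromosome and without the other ripening genes, show what surrounds it. Distances were not used here. Of the 17 tested neighbours of ACO1, 2 were lower and none higher in MN than in TN7, and 4 lower and none higher in Sunraycer than in TN11 (11.8% and 23.5%, against 10.3% and 18.3% of all tested genes). The strongest were Prupe.3G210300.v2.1, 4 IDs beyond ACO1, with no count in either nectarine against 94.0 CPM in TN7 and 96.4 CPM in TN11, and Prupe.3G210400.v2.1, the next ID. Prupe.3G210400.v2.1 had 0.105 CPM in MN and 0.0483 CPM in Sunraycer, against 11.5 CPM in TN7 and 17.2 CPM in TN11 (edgeR adjusted p = 7.13e-08 for MN minus TN7 and 1.25e-08 for Sunraycer minus TN11). ACO1 itself, a few IDs away, was higher in Sunraycer than in either peach.

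Prupe.4G185900.v2.1, 9 IDs before 4G186800, had 29.2 CPM in MN and 29.9 CPM in Sunraycer, against 162 CPM in TN7 and 199.6 CPM in TN11 (edgeR adjusted p = 5.76e-07 for MN minus TN7 and 8.02e-08 for Sunraycer minus TN11). Prupe.4G187700.v2.1, 9 IDs after 4G186800, was lower in each nectarine than in TN11, at 23.9 CPM in MN and 28.0 CPM in Sunraycer against 60.1 CPM in TN11 (adjusted p = 1.21e-05 and 9.01e-05). The NAC genes between them were lower in MN than in TN11 and also than in Sunraycer, and were not called in Sunraycer minus TN11. Around 4G261900, 3 of 8 tested neighbours were lower and 1 higher in MN minus TN11, and likewise in MN minus TN7 (50% each). Around 4G262200, 4 and 3 of 7 were lower and 0 higher (57.1% and 42.9%). Of all tested genes 15% and 10.3% were called. The 2 sets of neighbours overlap. Against the lower ones, Prupe.4G260900.v2.1, 10 IDs before 4G261900, had 16.9 CPM in MN and 1.86 CPM in Sunraycer. It had 0 CPM in TN7 and 0.0103 CPM in TN11, the reverse of the endopolygalacturonase for MN. Prupe.4G263100.v2.1, 9 IDs after 4G262200, had 0.441 CPM in MN against 9.84 CPM in Sunraycer (edgeR adjusted p = 1.10e-06), in the same direction as 4G262200.

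Around CCD4, 8 of 18 tested neighbours were lower in MN than in Sunraycer and none higher (44.4%, against 25.2% of all tested genes), although CCD4 itself was not called. Prupe.1G255000.v2.1 had 5.33 CPM in MN, 14.5 CPM in Sunraycer and 7.70 CPM in TN7, against 51.6 CPM in TN11 (edgeR adjusted p = 1.37e-06 for MN minus TN11). Near the silent YUC11, 16 of 20 neighbours were tested. In MN minus Sunraycer 4 of them, or 25%, were lower and none higher. Of all tested genes 25.2% were called and 16.8% were lower, so the number called is near the general share. In Sunraycer minus TN11 and in MN minus TN11 5 neighbours were called, or 31.25%, against 18.3% and 15% of all tested genes. Prupe.6G158100.v2.1 was higher in Sunraycer, at 1.97 CPM, and in TN7, at 2.09 CPM, than in TN11, at 0.294 CPM (edgeR adjusted p = 1.85e-06 and 7.09e-06). Of the 15 tested neighbours of ACS1, 0 were called in Sunraycer minus TN7 in edgeR, the comparison in which ACS1 had its largest difference, where 16.2% of all tested genes were called. In Sunraycer minus TN11 3 were called, 1 higher and 2 lower, or 20% against 18.3% of all tested genes.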

How the data were processed

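Fruit at fruit set was extracted with an RNeasy Plant Mini Kit, and TruSeq Stranded mRNA libraries were prepared from its RNA, per the labels' protocols. The authors deposited 1 table of estimated counts per gene with no scaling, and all its values are whole (0 exceptions). The submitters' processing notes list R 4.1.1, Bowtie2 2.5.1, RSEM 1.2.31 and DESeq2 without saying what each did. Not given in the sources used here are the genome build, the strand setting and how reads of similar or overlapping genes were assigned. Groups were read from the titles, and each of the 19 columns matched a title (0 without a match). TN7 4 was not analysed here.

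Counts were filtered with filterByExpr (19360 of 26811 genes kept), scaled by TMM, and modelled in edgeR 4.0.16 (glmQLFit, glmQLFTest; R 4.3.3), with a mean per accession over all 19 libraries. Standard errors were taken as the size of the log2 difference over the square root of F. Folds against an accession at 0 counts are lower bounds against 3 counts over it, and the bounds without the highest library were added after the data were seen. Log2 CPM used a prior count of 2, and the NAC ratio on the log2 scale a pseudocount of 0.5. Alternatives used RLE factors, no filter, DESeq2 1.42.0, limma-voom (limma 3.58.1), only the accessions compared, no minimum fold, the score as a covariate, a replicate block, and left-out libraries. The fit was tested on simulated data.

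The named genes are the 8 listed, for each the 2 with the most similar profile (mean of at least 1 CPM), and at most 2 called neighbours among 10 IDs on either side. Members and lists were chosen with earlier results of these data known. Lists of wider gene families and tissue markers, planned by product name, were not used, since IDs could not be paired with names. Same-numbered MN and TN7 libraries shared deviations in all 3 pairs (correlation across genes from 0.419 to 0.486), as the data alone show; with the block no member's call changed in that comparison. Elsewhere at least 1 pair was at 0.1 or below. Libraries of the same accession all differed by more than sampling noise (chi-square per degree of freedom at least 7.13).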

Additional observations from a re-analysis of the deposited data

Results flagged for a closer look

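Single libraries stood apart from the rest of their accession in 7 of 26 groups of values examined. The rule flags about 1 in 20 groups of normally distributed values. CPM are skewed and often 0, and the groups share libraries, so that rate is no yardstick here. For 4G261900 in TN7, with counts in 1 library only, the flag was certain. In Sunraycer 1 the NAC gene 4G187100 reached 15.8 CPM and CCD4 53.7 CPM, each far above the other Sunraycer libraries, and this library also had the highest score on the shared direction of spread, 2.57. In Sunraycer 10 the endopolygalacturonases 4G261900 and 4G262200 reached 61.8 and 48.1 CPM. In TN11 2, 4G261900 reached 20.2 CPM. In TN7 5, CCD4 reached 147 CPM, and 4G261900 had 0.537 CPM where the other TN7 libraries had no count.

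The nectarine minus peach difference differed between MN with TN7 and Sunraycer with TN11 in an interaction test for ACO1 (−2.52 on the log2 scale) and for the NAC gene 4G186800 (−2.06). Of 28 alternatives, 6 ended the call of ACO1 and 19 that of 4G186800, whose sign turned under 1 more. Both calls were lost with the replicate block (adjusted p = 0.0692 and 0.189), without Sunraycer 1 and TN7 5 together (0.0931 and 0.279) and with the score as a covariate (0.924 and 0.879).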

How the results depend on the processing

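Of 18 differences called among the ripening genes other than 4G262200, 2 were called under every alternative that could test them, namely ACS1 in Sunraycer minus TN11 and minus TN7. The 18 include those of 4G261900, which also passed the filter only with the Sunraycer libraries. The calls of 4G262200 are left out of the 18, since it entered the test only through Sunraycer, but the counts that follow include it. Leaving out 1 library at a time gave 0 to 1 called genes for MN minus TN7, 1 to 3 for Sunraycer minus TN11, 2 to 3 for MN minus TN11, 3 to 6 for Sunraycer minus TN7, 5 to 6 for MN minus Sunraycer, 0 to 1 for TN7 minus TN11 and 0 to 2 for the difference between the pairs. With the score as a covariate the count was 1 for MN minus TN11 (CCD4) and 3 for Sunraycer minus TN7 (ACS1, 4G262200 and CCD4). It was 2 for MN minus Sunraycer (4G262200 and CCD4), 1 for TN7 minus TN11 (4G187100) and 0 for the difference between the pairs. CCD4 was not called in the reported fit. In MN minus Sunraycer the calls of ACS1, ACO1, the NAC genes and 4G261900 were all lost with the score. Limma-voom gave 0 for MN minus TN7 and 1 for the difference between the pairs, where no filter also gave 1. The fit of the compared accessions alone gave 0 for MN minus TN7, since ACS1 did not pass its filter. DESeq2 gave 1 for TN7 minus TN11. Without Sunraycer 1 and TN7 5 together the counts were 2 for MN minus TN7, 1 for TN7 minus TN11 and 0 for the difference between the pairs.

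Blocking on the replicate number gave counts of 0 for MN minus TN11 and 1 for the difference between the pairs, where ACO1 and 4G186800 lost their calls and 4G262200 gained one (−8.06, adjusted p = 0.0363). The block also ended the calls of ACO1 in Sunraycer minus TN11 (1.61, adjusted p = 0.06), 4G186800 in Sunraycer minus TN7 (2.02, adjusted p = 0.075) and 4G261900 in 3 comparisons. For every pair of accessions, MN and TN7 included, the labels give same-numbered libraries only the number in common. In Sunraycer and TN7 the correlations of their deviations were −0.547, 0.367 and 0.536 for numbers 1, 2 and 3. CCD4 had −0.086 for MN minus TN11 and 0.75 for Sunraycer minus TN7 under the block.

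Signs turned mainly for CCD4. With the score as a covariate it had 0.99 for MN minus TN7, −0.72 for Sunraycer minus TN11, 2.62 for MN minus Sunraycer and 1.71 for the difference between the pairs. Limma-voom gave 0.22 for MN minus TN7 and 0.70 for Sunraycer minus TN7. Without Sunraycer 1 and TN7 5 together it had 1.53 for MN minus TN7, 1.49 for Sunraycer minus TN7, 0.032 for MN minus Sunraycer, −0.86 for TN7 minus TN11 and 0.90 for the difference between the pairs. Leaving out 1 library at a time it ran from −1.36 to 1.51 (MN minus TN7), −0.94 to 1.81 (Sunraycer minus TN7), −0.77 to 0.030 (MN minus Sunraycer), −0.87 to 1.89 (TN7 minus TN11) and −2.30 to 0.57 (the difference between the pairs). With the score as a covariate, 4G186800 had −0.31 for Sunraycer minus TN11 and 0.25 for the difference between the pairs, and 4G187100 had 0.15 for MN minus TN7, −0.37 for Sunraycer minus TN11 and 0.52 for the difference between the pairs. For 4G262200, TN7 minus TN11 was −0.25 with the score and −0.23 without Sunraycer 1 and TN7 5, and ran from −0.24 to 1.16 on leaving out 1 library at a time. The NAC ratio of TN7 minus TN11 ran from −0.18 to 0.26 in that way. The cause of these changes was not tested.

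Over all genes, adjusted p alone with no minimum fold called 3960 (MN minus TN7), 8332 (Sunraycer minus TN11), 6473 (MN minus TN11), 6967 (Sunraycer minus TN7), 11739 (MN minus Sunraycer), 1523 (TN7 minus TN11) and 7219 (difference between the pairs) genes, against 1999, 3550, 2904, 3129, 4884, 840 and 4199. The score as a covariate gave 2265 for Sunraycer minus TN11, 846 for MN minus Sunraycer and 817 for the difference between the pairs, which was 2561 without Sunraycer 1 and TN7 5. Depth limits ACS1 in TN7 and both endopolygalacturonases, which have few or no counts in most libraries.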
